A study of Mus musculus with 12 samples.

Results

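Carboxylesterases are serine hydrolases that cleave esters and amides, and the liver is rich in them. In the mouse they form a family expanded by tandem duplication, with Ces1, Ces2 and Ces3 subfamilies. Most of them stay in the endoplasmic reticulum, where they hydrolyze drugs, prodrugs and neutral lipids such as triacylglycerol and cholesteryl ester, and some are secreted into plasma. The 10 genes described here, Ces1b, Ces1c, Ces1d, Ces1e, Ces1f, Ces1g, Ces2a, Ces2e, Ces3a and Ces3b, were chosen by symbol, without a threshold on their values. The choice was made with earlier results of these data known. All 10 were listed in both count tables, among 20093 genes common to the tables, and all 10 passed the filter on low counts in both.

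RNA-seq was done on 12 livers of male C57BL/6N mice, 3 in each of 4 groups, and every mouse carried a floxed allele of Elavl1 (HuR flox/flox). Elavl1 encodes HuR, an RNA-binding protein of AU-rich mRNAs. Per the labels, the mice were 4 to 6 months old. Those labeled HuRHep-/- had been injected with AAV8-Tbg-Cre, a virus with Cre under a hepatocyte promoter, and those labeled WT with AAV8-Tbg-null, so that all 4 groups received virus. A pair of groups ate normal chow. The other pair was fed for 16 weeks with HFCF, a diet rich in fat (40 kcal%), cholesterol (2%) and fructose (20 kcal%). The study's methods instead describe a cross with albumin-Cre mice, and the tables do not settle which description holds for these livers. The chow and HFCF libraries were deposited in separate tables, so diet and table cannot be told apart. The study describes the chow livers as coming from separate mice, the labels do not say so for the HFCF livers, and p-values measure only the spread between these libraries.

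The targeted gene went against the labels. Elavl1 was counted 938, 876 and 948 times in the chow livers labeled WT and 1475, 1265 and 1261 times in the chow livers labeled HuRHep-/-. In HFCF livers the counts were 904, 791 and 849 under the WT label and 1299, 1242 and 1271 under the HuRHep-/- label. All libraries labeled HuRHep-/- thus lay above those labeled WT within a diet, by 0.41 ± 0.07 (log2 fold change ± SE, adjusted p = 0.0219) in chow and 0.38 ± 0.07 (adjusted p = 0.0327) in HFCF. The deposited counts cover whole genes and do not show whether the floxed exon was lost. Every direction below is therefore one between livers labeled HuRHep-/- and livers labeled WT.

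The libraries held 30071731 to 35949203 counts. The 10 carboxylesterases took 0.663 to 0.698% of them in chow livers labeled WT, 0.554 to 0.582% in chow livers labeled HuRHep-/-, 0.511 to 0.641% in HFCF livers labeled WT and 0.457 to 0.464% in HFCF livers labeled HuRHep-/-. The 6 hepatocyte markers Alb, Ttr, Apoa1, Serpina1a, Cyp2e1 and Ass1 were abundant in each library, and none was at 0. Their summed level was 98480 to 120300 CPM (counts scaled to library size) in chow livers labeled WT, 78930 to 88150 in chow livers labeled HuRHep-/-, 69740 to 77400 in HFCF livers labeled WT and 62990 to 67890 in HFCF livers labeled HuRHep-/-. Like the family's share, that sum, most of it Alb, was highest in chow livers labeled WT and lowest in HFCF livers labeled HuRHep-/-. Alb, Apoa1, Serpina1a and Cyp2e1 had their lowest mean in HFCF livers labeled HuRHep-/-. Means of Ass1 and Ttr were lowest in HFCF livers labeled WT, at 2284 and 5689 CPM. In HFCF livers labeled HuRHep-/- they were 2960 and 5723 CPM. The part of these markers in the results was not tested. In bulk liver, fewer cells of a type and less RNA per cell cannot be told apart.

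All 10 genes lie on chromosome 8 (GRCm38, GENCODE annotation) and are protein-coding. The 6 Ces1 genes follow each other on the minus strand in the order Ces1b, Ces1c, Ces1d, Ces1e, Ces1f and Ces1g within chr8:93056728-93337308, with 3379 to 34784 bases between neighbors. Ces2a, Ces2e, Ces3a and Ces3b lie 11396694 bases further along, on the plus strand within chr8:104734003-105093929. Identity of the coding regions over aligned bases was 95.3% between Ces3a and Ces3b, 90.9% between Ces1b and Ces1c, 83.3% between Ces2a and Ces2e and 81.5% between Ces1d and Ces1g. Members of different subfamilies were 58.8 to 62.6% identical.

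**Figure D1:**
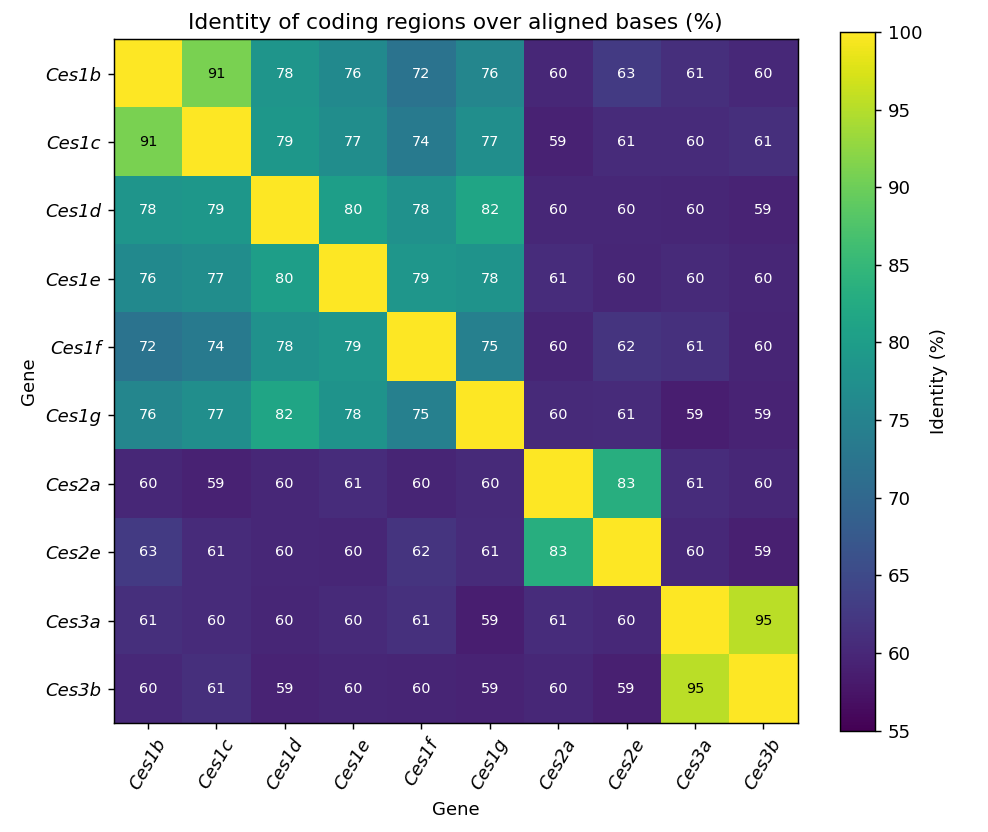
Identity of the coding regions of the 10 genes over aligned bases, in percent, for every pair, from GENCODE transcripts. Both axes list the genes and color gives the identity, and the 3 blocks along the diagonal are the subfamilies, with the highest values at 95.3% for Ces3a with Ces3b and 90.9% for Ces1b with Ces1c.

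Near-identical copies bear on how reads were assigned. Of the words of 31 bases in each member's transcript, 42.6% of those of Ces3a also occurred in Ces3b, and 36.1% of those of Ces3b in Ces3a. For Ces1c and Ces1b the shares found in any other gene were 30.1% and 23.9%. For Ces2a it was 37.4%, mostly shared with Gm7208, which neither table listed. The other 5 members shared between 5.54 and 8.77%. Counts of Ces2a, of Ces3a against Ces3b, and of Ces1b against the far more abundant Ces1c, are for this reason less certain than those of Ces1d, Ces1e, Ces1f, Ces1g and Ces2e.

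The catalytic serine of these enzymes sits in a tight turn, the nucleophile elbow. The stretch of the coding region around it is shown because it carries the family's shared feature and because its letters tell the members apart. Capitals mark the 6 codons of the elbow, of which the third is the serine codon (codon 221 to 232 of the coding region, counted from the start codon), and the 6 bases on either side are in lower case.
Ces1b: gtctttGGGTCATCAGCAGGAGGTgtcagt
Ces1c: atctttGGAGAGTCATCAGGGGGTatcagt
Ces1d: atctttGGAGAGTCAGCAGGAGGTttcagt
Ces1e: atctttGGAGAGTCAGCAGGAGGTgaaagt
Ces1f: atctttGGAGAGTCAGCAGGAGGTtacagt
Ces1g: atcttcGGCGAGTCAGCAGGAGGTgaaagt
Ces2a: atatttGGAGTCTCAGCAGGAGGTacaagt
Ces2e: atttttGGAGAGTCAGCAGGTGGCacaagt
Ces3a: atcttcGGTAACTCTGCTGGAGGCattatt
Ces3b: atcttcGGTAACTCTGCTGGAGGCatgatt
A serine codon stood there in all 10 members. The codon before it was GAG in 6 members (Ces1c, Ces1d, Ces1e, Ces1f, Ces1g and Ces2e), AAC in Ces3a and Ces3b, GTC in Ces2a and TCA in Ces1b.

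Many proteins of the endoplasmic reticulum carry a 4-residue signal at the C terminus that returns them there, which is why the end of the coding region is shown. The last 8 codons and the stop codon are given, with the last 4 codons before the stop in capitals.
Ces1b: cctactgagcacAGAGAACACAAAtga
Ces1c: cctactgaacacACAGAACACAAAtga
Ces1d: tcccacagggaaCATGTTGAGCTCtga
Ces1e: ctgccgacagaaCACACTGAGCTGtga
Ces1f: ccccagccatacCACAATGAGCTGtga
Ces1g: tcccatagggaaCATGTTGAACTGtga
Ces2a: tctcaggacaagCATGCAGAGCTGtag
Ces2e: tctcaggagaggCACAAAGAGTTGtag
Ces3a: agcaggaaagttCCAGAGGAGCTCtga
Ces3b: agcaggaaagttCCAGAGGAGCTCtga
Of the 10 members, 6 ended with codons of the form used for that retrieval signal (a histidine codon, any codon, a glutamate codon and a leucine codon). These were Ces1d, Ces1e, Ces1f, Ces1g, Ces2a and Ces2e. The ends of Ces1b, Ces1c, Ces3a and Ces3b had another form. Ces1c is known as the abundant plasma esterase of mice.

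The order of the levels was set per length, as CPM per kilobase of annotated exon. In chow livers labeled WT, Ces1c stood highest at 1110 ± 119 CPM per kilobase (SD, n = 3), followed by Ces3a at 791 ± 49.5. Next came Ces1d, known as triacylglycerol hydrolase, at 238 ± 42.4, Ces2a at 228 ± 26.7 and Ces3b at 224 ± 36.1, whose libraries overlapped. Ces1f stood at 141 ± 11.3, Ces1e at 102 ± 14.4, Ces1g at 84.3 ± 3.98 and Ces2e at 78.3 ± 6.46, with overlap from Ces1e to Ces1g and from Ces1g to Ces2e. Ces1b was lowest at 44.4 ± 8.24. Ces1c, Ces3a and Ces1d kept ranks 1 to 3, and Ces1b rank 10, in all 4 groups.

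The ranks between them differed between groups. Ces2a was rank 4 in both chow groups, rank 7 in HFCF livers labeled WT and rank 8 in HFCF livers labeled HuRHep-/-, where it stood at 62.0 ± 3.11 CPM per kilobase. Ces1g was rank 8 and 7 in chow livers labeled WT and HuRHep-/-, rank 9 in HFCF livers labeled WT and rank 4 in HFCF livers labeled HuRHep-/-, at 105 ± 9.05. Ces3b was rank 5 in both chow groups, rank 4 in HFCF livers labeled WT and rank 9 in HFCF livers labeled HuRHep-/-, at 56.6 ± 1.04. In HFCF livers labeled WT the libraries of each neighboring pair from Ces3b down to Ces1g overlapped, as did those of Ces1c and Ces3a. Under the HuRHep-/- label, Ces2a overlapped with Ces3b in chow, and in HFCF Ces1f overlapped with Ces2e and Ces1e with Ces2a. With the length of the longest transcript in place of all exons, 13 of 40 ranks moved, by at most 2 places.

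**Figure D2:**
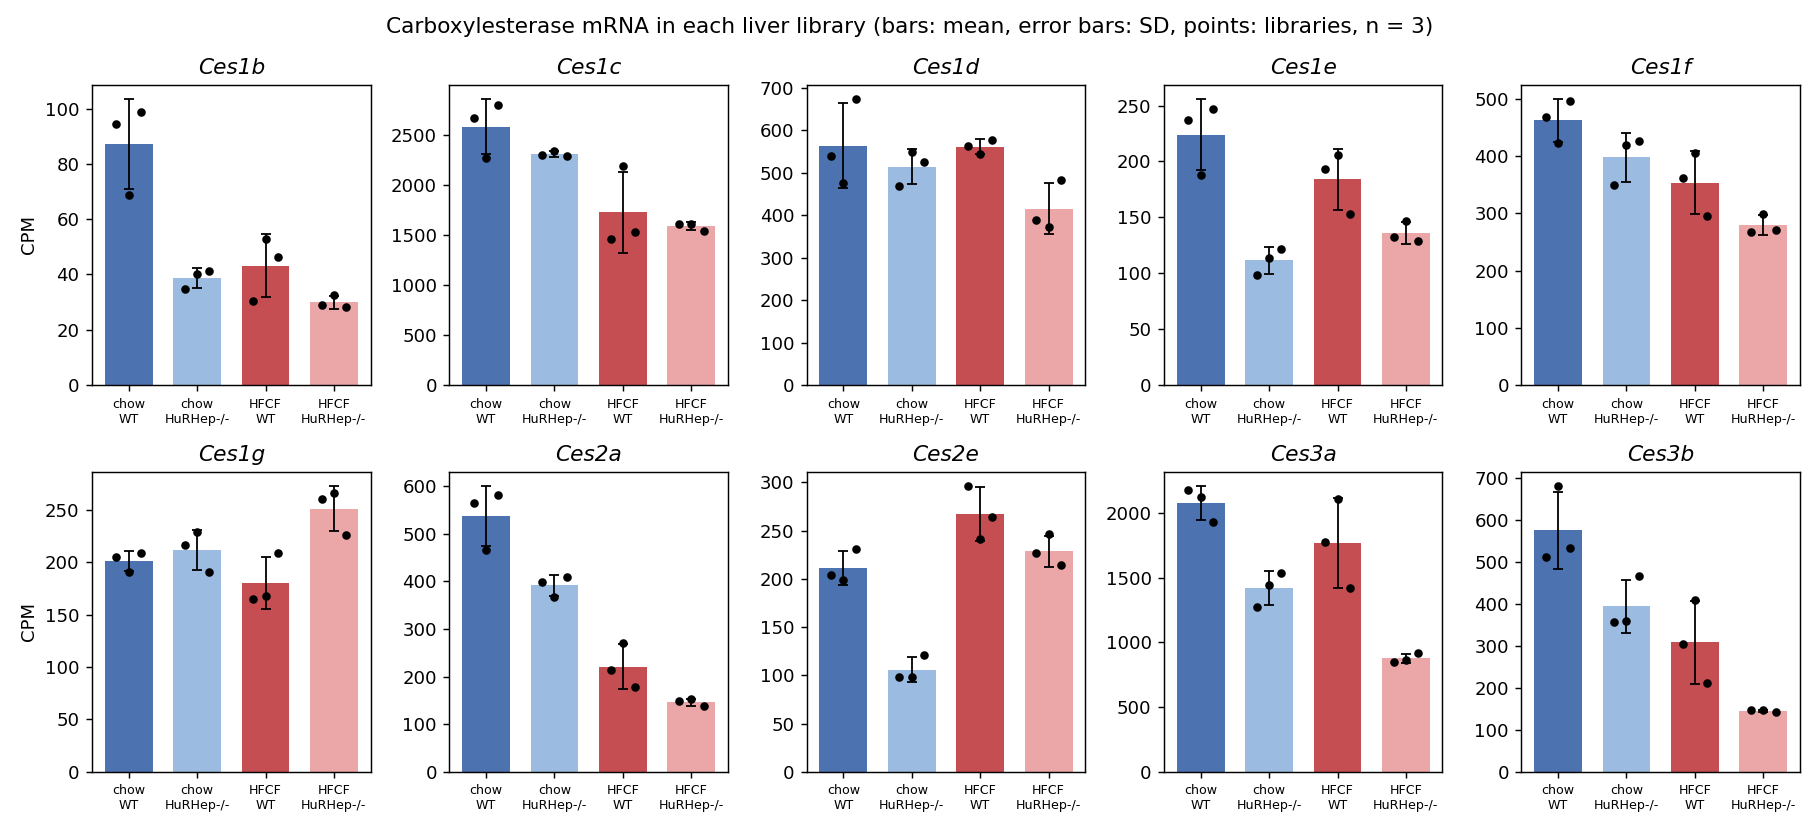
Level of each of the 10 genes in CPM (vertical axes, linear from 0) in the 4 groups, named as in the labels. Bars are means, error bars SD and points the 3 libraries of a group. Ces1b, Ces1e and Ces2e show the gap between the chow groups, Ces3a and Ces3b the gap between the HFCF groups, and Ces1g lies higher in HFCF livers labeled HuRHep-/- (226.6 to 266.5 CPM) than in HFCF livers labeled WT (164.6 to 208.5 CPM).

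In chow livers, 3 members were lower in livers labeled HuRHep-/-, Ces1b, Ces1e and Ces2e, each at about 0.45 to 0.50 times the level of livers labeled WT, and none was called higher. A gene was called when its adjusted p did not exceed 0.05, it changed by 1.5-fold or more, and each group held 10 counts or more. Of the 13526 genes tested in chow, 2.24% were called, 0.969% lower and 1.27% higher. By estimate, 9 of 10 members were lower, and their median log2 fold change was -0.49, against 0.00 over all genes tested.

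Ces1b measured 94.3, 68.7 and 98.7 CPM in chow livers labeled WT and 34.7, 40.1 and 41.3 CPM in chow livers labeled HuRHep-/-. The groups did not overlap. Its log2 fold change was -1.15 ± 0.14 (SE, adjusted p = 0.0104).

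Ces1e, known as egasyn, holds β-glucuronidase in the endoplasmic reticulum. It measured 237, 188 and 247 CPM in chow livers labeled WT and 98.7, 114 and 122 CPM in those labeled HuRHep-/-, again without overlap. The log2 fold change was -0.996 ± 0.118 (adjusted p = 0.0104).

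Ces2e, a Ces2 enzyme, measured 204, 199 and 231 CPM under the WT label and 98.3, 98.3 and 121 CPM under the HuRHep-/- label in chow. The lowest library labeled WT was well above the highest labeled HuRHep-/-. The log2 fold change was -0.99 ± 0.10 (adjusted p = 0.00708), which ranked 15 by p among all genes tested.

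Ces2a, Ces3a and Ces3b were also without overlap in chow, but were not called. Ces3a measured 2177, 2125 and 1931 CPM under the WT label and 1276, 1445 and 1535 CPM under the HuRHep-/- label, a log2 fold change of -0.55 ± 0.10 (adjusted p = 0.0318). Ces2a, a hydrolase of drugs and acylglycerols, had a log2 fold change of -0.45 ± 0.10 (adjusted p = 0.0460), and Ces3b one of -0.54 ± 0.14 (adjusted p = 0.0797). In all, 6 of 10 members had groups that did not overlap, against 29.5% of all genes tested in chow. Without the fold threshold 5 of 10 members passed, against 4.17% of genes.

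Ces1c, Ces1d, Ces1f and Ces1g were not called and overlapped between the chow groups. The 95% confidence intervals of their log2 fold changes were -0.39 to 0.10 for Ces1c, -0.41 to 0.18 for Ces1d, -0.44 to 0.02 for Ces1f and -0.11 to 0.27 for Ces1g. Ces1c and Ces1b, the pair with 90.9% identical coding regions and adjoining genes, therefore had intervals apart from each other in chow (for Ces1b, -1.47 to -0.83). With their counts summed, an alternative chosen after the data were examined, the log2 fold change was -0.17 ± 0.11 (adjusted p = 0.370), with most of these counts from Ces1c.

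The calls in chow depended on 1 library. Without chow HuRHep-/- replicate 2, 0 of the 10 members were called, with Ces1b at a log2 fold change of -1.18 (adjusted p = 0.0548), Ces1e at -1.01 (adjusted p = 0.0554) and Ces2e at -0.94 (adjusted p = 0.0520), and of all genes 4 were called higher and 4 lower. Without chow HuRHep-/- replicate 3, 5 members were called, Ces3a and Ces3b in addition, and of all genes 169 were called higher and 151 lower.

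In HFCF livers the called members were other ones. Ces3a and Ces3b were lower in livers labeled HuRHep-/-, each at about 0.48 to 0.50 times the level of livers labeled WT, and none was called higher. Of 14295 genes tested in HFCF, 3.62% were called, 1.47% lower and 2.15% higher. The members' median log2 fold change was -0.45, against 0.00 over all genes tested, and 9 of 10 estimates were negative.

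Ces3a, a liver esterase, measured 1772, 2108 and 1416 CPM in HFCF livers labeled WT and 848, 863 and 916 CPM in those labeled HuRHep-/-. Its log2 fold change was -1.01 ± 0.15 (adjusted p = 0.0193). Ces3b measured 304, 409 and 213 CPM and 147, 146 and 142 CPM, with a log2 fold change of -1.05 ± 0.21 (adjusted p = 0.0376). Neither gene overlapped between the groups, and the livers labeled WT varied more than those labeled HuRHep-/-. Because reads of this pair may be exchanged, their counts were also summed, an alternative chosen after the data were examined, and the sum had a log2 fold change of -1.02 ± 0.16 (adjusted p = 0.0225) in HFCF and -0.55 ± 0.11 (adjusted p = 0.0390) in chow. Both calls were lost without HFCF WT replicate 1 or without any single HFCF library labeled HuRHep-/-, with adjusted p up to 0.103 for Ces3a and 0.134 for Ces3b. In those 4 fits 8 to 28 of all genes were called higher and 20 to 70 lower, against 307 and 210 with all 6 libraries. Over all fits that left out 1 library, the log2 fold changes ran from -1.15 to -0.87 for Ces3a and from -1.29 to -0.83 for Ces3b.

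Ces1g, a Ces1 enzyme of hepatic lipid handling, moved the other way. It measured 165, 168 and 209 CPM in HFCF livers labeled WT and 261, 267 and 227 CPM in those labeled HuRHep-/-, without overlap. The log2 fold change was 0.47 ± 0.11 (adjusted p = 0.0498), which is under the fold threshold. With 1 library left out, it ran from 0.42 to 0.58, with adjusted p from 0.0276 to 0.169. In chow the same gene measured 205, 191 and 209 CPM and 217, 229 and 191 CPM, which overlapped. Ces1g was the only member with a positive estimate in either diet.

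The other 7 members were not called in HFCF. Ces1d, a triacylglycerol hydrolase that supplies lipid to very-low-density lipoproteins, measured 563, 544 and 578 CPM under the WT label and 389, 373 and 484 CPM under the HuRHep-/- label, with a log2 fold change of -0.46 ± 0.11 (adjusted p = 0.0481). Ces2a had -0.59 ± 0.15 (adjusted p = 0.0560), Ces1e -0.44 ± 0.12 (adjusted p = 0.0682), Ces1b -0.51 ± 0.19 (adjusted p = 0.129), Ces1f -0.35 ± 0.12 (adjusted p = 0.118), Ces2e -0.24 ± 0.10 (adjusted p = 0.153) and Ces1c -0.11 ± 0.16 (adjusted p = 0.669). Without HFCF WT replicate 3, Ces2a was called lower as well, and of all genes 584 were called higher and 266 lower. The groups did not overlap for 6 of 10 members, against 36.8% of all genes tested in HFCF. Without the fold threshold 4 of 10 members passed, against 6.7% of genes. Of these, Ces1d and Ces1g were close to the limit, with adjusted p up to 0.173 and 0.169 when 1 library was left out.

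**Figure D3:**
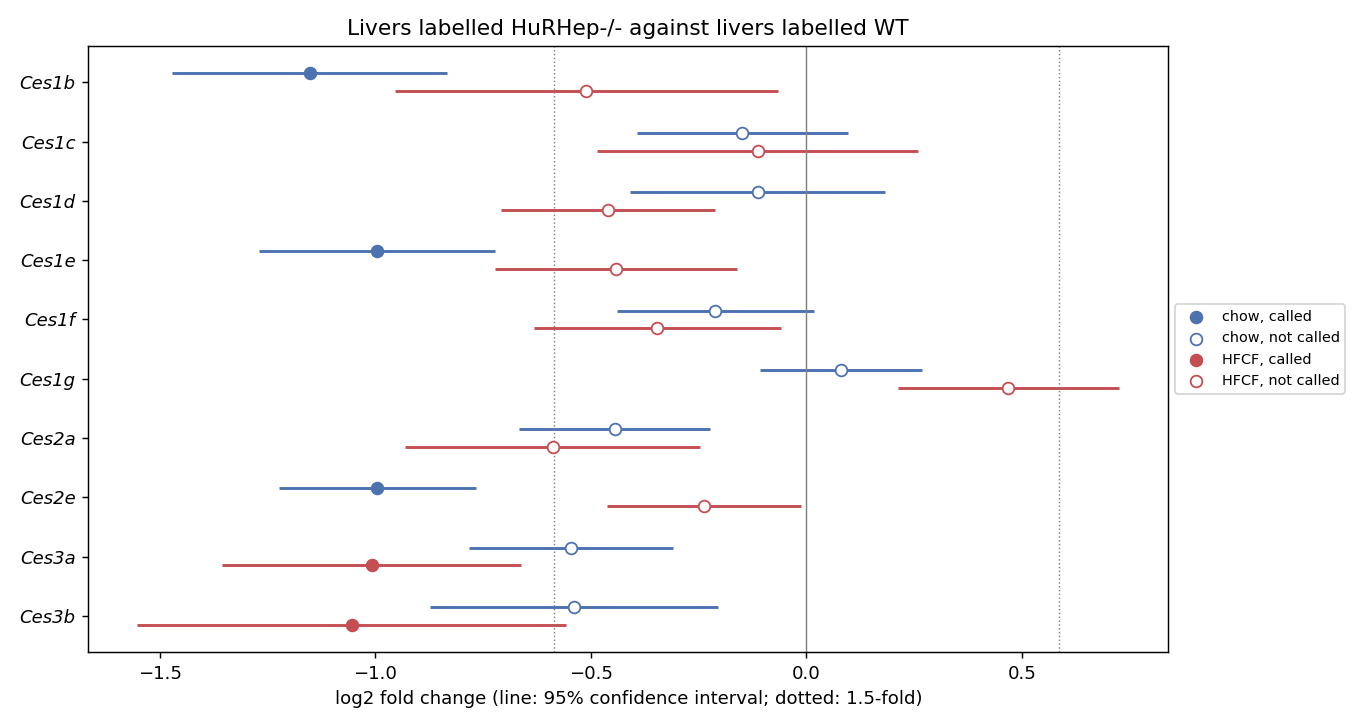
Log2 fold change of each gene in livers labeled HuRHep-/- against livers labeled WT (horizontal axis, log2 scale), in chow (blue) and in HFCF (red). Points are estimates, filled where called, lines are 95% confidence intervals and dotted lines mark a fold change of 1.5. Filled points are Ces1b, Ces1e and Ces2e in chow and Ces3a and Ces3b in HFCF, all left of 0, and Ces1g alone has both points right of 0.

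A call in 1 diet and not in the other does not show that the diets differ, so the difference was tested as an interaction over the 12 libraries. No member was called, and 0% of 14535 genes were, at an adjusted p of at most 0.05. At an unadjusted p under 0.05 there were 5 of 10 members, against 14.4% of all genes tested, and limma with voom weights also called 0 members. The difference (HFCF minus chow, log2) was 0.78 for Ces2e (95% confidence interval 0.46 to 1.10, adjusted p = 0.0915), 0.66 for Ces1b (0.09 to 1.23, adjusted p = 0.288) and 0.58 for Ces1e (0.18 to 0.98, adjusted p = 0.217). It was 0.41 for Ces1g (0.09 to 0.73, adjusted p = 0.252), -0.44 for Ces3a (-0.85 to -0.04, adjusted p = 0.313) and -0.49 for Ces3b (-1.10 to 0.12, adjusted p = 0.442). Intervals for Ces1c (-0.38 to 0.49), Ces1d (-0.72 to 0.07), Ces1f (-0.48 to 0.25) and Ces2a (-0.53 to 0.29) included 0.

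Averaged over both diets in the fit on 12 libraries, 5 of 10 members were lower in livers labeled HuRHep-/-, Ces1b, Ces1e, Ces2e, Ces3a and Ces3b. None was called higher. Of 14535 genes, 5.07% were called, 1.84% lower and 3.23% higher, and without the fold threshold 9 of 10 members passed, against 18.8% of genes. The log2 fold changes were -0.83 ± 0.13 for Ces1b (adjusted p = 0.00181), -0.71 ± 0.09 for Ces1e (adjusted p = 0.000518), -0.61 ± 0.07 for Ces2e (adjusted p = 0.000349), -0.77 ± 0.09 for Ces3a (adjusted p = 0.000356) and -0.79 ± 0.14 for Ces3b (adjusted p = 0.00325). Below the fold threshold, Ces2a had -0.51 ± 0.09 (adjusted p = 0.00389), Ces1d -0.28 ± 0.09 (adjusted p = 0.0478), Ces1f -0.27 ± 0.08 (adjusted p = 0.0390) and Ces1g 0.28 ± 0.07 (adjusted p = 0.0210). Ces1c had -0.13 ± 0.10 (adjusted p = 0.396). This average rests on the same libraries as the values within each diet. Without chow WT replicate 3 or without HFCF WT replicate 1, Ces2e fell under the fold threshold and 4 members were called. Of all genes, 381 were called higher and 241 lower in the former fit, and 403 and 233 in the latter.

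HFCF against chow changed the family unevenly. In livers labeled WT, 4 members were lower on HFCF, Ces1b, Ces1c, Ces2a and Ces3b, against 9.38% of 14535 genes called, 3.24% lower and 6.14% higher. In livers labeled HuRHep-/-, Ces2a, Ces3a and Ces3b were lower, against 4.9% of genes, and Ces2e was higher, against 14.2% of genes (19.1% in either direction). Without the fold threshold 6 members passed under each label, against 23.6% of genes in livers labeled WT and 38.3% in livers labeled HuRHep-/-. Chow and HFCF libraries did not overlap for 6 members in livers labeled WT, against 37.6% of genes, and for 8 members in livers labeled HuRHep-/-, against 54.6%. Median log2 fold changes of the members were -0.34 and -0.44, against 0.01 and 0.00 over all genes. These diet comparisons use the same libraries as the genotype comparisons.

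Ces2a showed the lowest estimate of the 10 in livers labeled WT. Its CPM were 565, 466 and 582 on chow and 214, 270 and 178 on HFCF in livers labeled WT, a log2 fold change of -1.30 ± 0.13 (adjusted p = 0.000197). In livers labeled HuRHep-/- they were 399, 367 and 410 on chow and 149, 152 and 138 on HFCF, with -1.42 ± 0.13 (adjusted p = 7.25e-05). The HFCF libraries lay below all chow libraries under both labels.

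Ces3b was lower on HFCF under both labels as well, by a log2 fold change of -0.94 ± 0.20 (adjusted p = 0.00655) in livers labeled WT and -1.43 ± 0.20 (adjusted p = 0.000466) in livers labeled HuRHep-/-. Its neighbor Ces3a had -0.25 ± 0.13 (adjusted p = 0.182) and -0.69 ± 0.13 (adjusted p = 0.00223). With the counts of both genes summed, the log2 fold change was -0.38 ± 0.14 (adjusted p = 0.0726) and -0.82 ± 0.14 (adjusted p = 0.00133).

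Ces2e was higher on HFCF. In livers labeled HuRHep-/- it went from 98.3, 98.3 and 121 CPM on chow to 226.5, 246 and 214 CPM on HFCF, a log2 fold change of 1.12 ± 0.10 (adjusted p = 7.11e-05). In livers labeled WT the HFCF libraries measured 296, 241 and 264.5 CPM, all above the chow libraries, and the log2 fold change was 0.34 ± 0.10 (adjusted p = 0.0345), under the fold threshold. Ces2a and Ces2e, whose coding regions are 83.3% identical, thus had diet estimates of opposite sign under both labels.

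Among the Ces1 genes, Ces1b and Ces1c were lower on HFCF in livers labeled WT, and none was called in livers labeled HuRHep-/-. Ces1b had -1.04 ± 0.18 (adjusted p = 0.00310) in livers labeled WT and -0.37 ± 0.18 (adjusted p = 0.131) in livers labeled HuRHep-/-. Ces1c went from 2673, 2269 and 2797 CPM to 1460, 2185 and 1528 CPM in livers labeled WT, a log2 fold change of -0.60 ± 0.14 (adjusted p = 0.0111), and had -0.54 ± 0.14 (adjusted p = 0.0111) in livers labeled HuRHep-/-. Its call in livers labeled WT was just past the fold threshold and was lost without chow WT replicate 1 or 3, without HFCF WT replicate 1 or 3, and in the fit on the 6 livers labeled WT alone. Ces1f, a triacylglycerol hydrolase, had -0.39 ± 0.12 (adjusted p = 0.0310) and -0.51 ± 0.12 (adjusted p = 0.00632). For Ces1d, Ces1e and Ces1g the log2 fold changes were 0.01 ± 0.13, -0.29 ± 0.13 and -0.17 ± 0.10 in livers labeled WT, and -0.31 ± 0.13, 0.29 ± 0.13 and 0.25 ± 0.10 in livers labeled HuRHep-/-, with adjusted p of 0.0696 to 0.965.

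**Figure D4:**
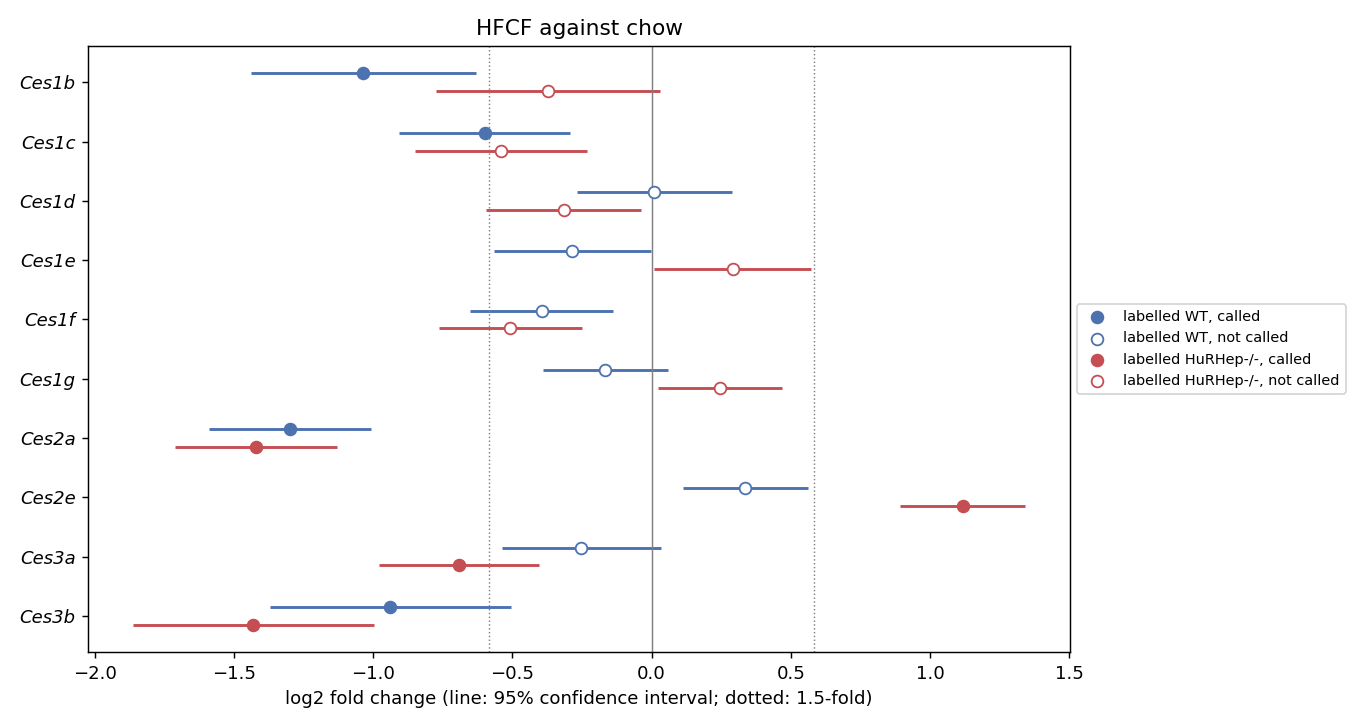
Log2 fold change of each gene on HFCF against chow (horizontal axis, log2 scale), in livers labeled WT (blue) and in livers labeled HuRHep-/- (red). Points are estimates, filled where called, lines are 95% confidence intervals and dotted lines mark a fold change of 1.5. Ces2a has both filled points at -1.30 and -1.42, and Ces2e has a filled point at 1.12 in livers labeled HuRHep-/-.

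Members moved unequally, so the makeup of the family's mRNA differed between groups. The summed level was 7675, 7087 and 7798 CPM in chow livers labeled WT and 5597, 5956 and 6125 CPM in chow livers labeled HuRHep-/-. In HFCF livers it was 5360, 6588 and 4879 CPM under the WT label and 4062, 4134 and 4087 CPM under the HuRHep-/- label. The libraries labeled HuRHep-/- lay below those labeled WT in either diet. Ces1c and Ces3a carried most of this sum. In the order chow livers labeled WT, chow livers labeled HuRHep-/-, HFCF livers labeled WT and HFCF livers labeled HuRHep-/-, Ces1c held 34.2 ± 1.99, 39.2 ± 1.88, 30.6 ± 3.03 and 38.7 ± 1.04% of it. Ces3a held 27.7 ± 2.68, 24.04 ± 1.15, 31.4 ± 2.10 and 21.4 ± 0.886%. In either diet the mean share of Ces1c was thus higher, and that of Ces3a lower, under the HuRHep-/- label. In the same order Ces2a held 7.13 ± 0.488, 6.66 ± 0.485, 3.91 ± 0.245 and 3.58 ± 0.170%, Ces2e 2.81 ± 0.154, 1.79 ± 0.165, 4.87 ± 1.05 and 5.59 ± 0.357%, and Ces1g 2.68 ± 0.0103, 3.61 ± 0.423, 3.30 ± 0.884 and 6.14 ± 0.515%.

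**Figure D5:**
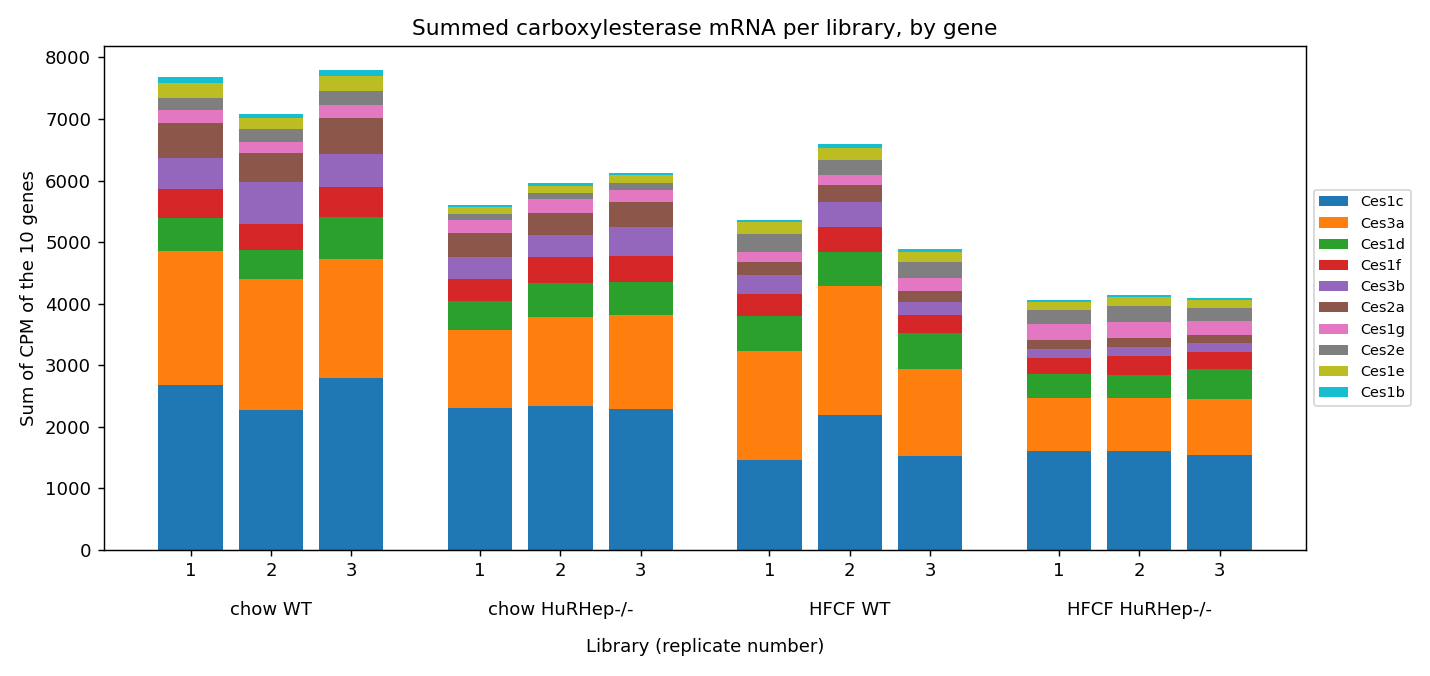
Summed level of the 10 genes in CPM (vertical axis, linear from 0) in each of the 12 libraries (horizontal axis, replicate numbers under their group). Colored segments are the genes. Sums run from 7087 to 7798 CPM in chow livers labeled WT down to 4062 to 4134 CPM in HFCF livers labeled HuRHep-/-, and Ces1c and Ces3a form the 2 lowest segments of every bar.

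Of the transcripts of markers of other cells, those of Kupffer cells and macrophages (8 of 8 measured) summed to 144 to 185 CPM in chow livers labeled WT, 203 to 299.7 in chow livers labeled HuRHep-/-, 219.5 to 355 in HFCF livers labeled WT and 305 to 505 in HFCF livers labeled HuRHep-/-. The 5 cholangiocyte markers summed to 132.5 to 241 CPM in HFCF livers labeled HuRHep-/- and to 35.1 to 87.3 CPM in the other 3 groups, most of it Spp1. Krt19, Krt7, Epcam and Sox9 had means of 3.96 to 7.50 CPM in HFCF livers labeled HuRHep-/- and 1.22 to 4.90 CPM in the other 3 groups. The 7 stellate cell markers summed to 366 to 459 CPM in HFCF livers labeled HuRHep-/-, against 128 to 198 CPM in chow and 165 to 373 CPM in HFCF livers labeled WT. Sinusoidal endothelium (6 markers) stayed between 94.9 and 130 CPM in all 4 groups. The 5 lymphocyte markers summed to 3.99 to 5.19 CPM in HFCF livers labeled HuRHep-/- and to 1.74 to 3.14 CPM in the other 3 groups. Adipose markers (3 of 4 listed) were at most 1.37 CPM in chow and 25.6 to 260.5 CPM in HFCF, nearly all of it Cfd. The other adipose markers, Adipoq and Plin1, were at most 0.0611 and 0.135 CPM in any library, and Adipoq was at 0 in the chow livers labeled HuRHep-/-. Those of intestine (2 of 3) ran from 52.9 to 83.3 CPM in chow and from 209 to 244 CPM in HFCF, nearly all of it Fabp2, while Vil1 was at most 0.415 CPM in any library. Those of exocrine pancreas (2 of 4) ran from 9.31 to 47.2 CPM, nearly all of it Cela1, with Ctrb1 at 0 in the chow livers labeled WT. The part of these shifts in the carboxylesterase values was not tested.

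Among the other 10 Ces genes, 9 were listed in both tables, and Ces5a only in HFCF with at most 2 counts a library. Ces2c, at 72.1 to 140 CPM in chow livers labeled WT, was the only one called between the labels, with a log2 fold change over both diets of -0.61 ± 0.19 (adjusted p = 0.0435). Of its words, 58.2% occur in other genes, chiefly the pseudogene Ces2d-ps. Ces2g stood at 37.7 ± 2.18 CPM and was not called in any comparison. Ces4a was called on HFCF in livers labeled HuRHep-/- with a log2 fold change of -2.20 ± 0.54 (adjusted p = 0.00839), from 73, 117 and 190 counts to 30, 22 and 39 counts. Ces1a, Ces2d-ps and Ces2h stayed under 1 CPM in every library, Ces1h and Ces2f had at most 2 counts in any, and Ces2b ran from 0.43 to 11.6 CPM in chow livers labeled WT.

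Other enzymes that share substrates with the carboxylesterases were compared through lists of genes. Of 14 other neutral lipid hydrolases tested, over both diets 1 was called lower and 1 higher in livers labeled HuRHep-/-, against 1.84% and 3.23% of all genes. Aadac, the arylacetamide deacetylase of the endoplasmic reticulum, was lower with a log2 fold change of -0.74 ± 0.08 (adjusted p = 0.000157), and it was called lower in chow (-0.71 ± 0.10) and in HFCF (-0.78 ± 0.11). Lpl, the lipoprotein lipase, was higher at 1.40 ± 0.25 (adjusted p = 0.00326). Aadac was also the 1 called of 13 other phase I hydrolases over both diets. The 11 genes of sterol and triacylglycerol esterification had 1 called, Mogat2, at 1.00 ± 0.31 (adjusted p = 0.0441), and the 9 genes of very-low-density lipoprotein assembly had 0 by limma (6 at an unadjusted p under 0.05, against 34.7% of all genes). Median log2 fold changes of these lists lay between -0.20 and -0.12, against 0.01 over all genes.

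Transcription factors known to regulate liver esterases, among them the receptors CAR (Nr1i3), PXR (Nr1i2), FXR (Nr1h4) and PPARα (Ppara), were all 16 measured. In the genotype comparisons 0 of 16 were called, and by limma 6 of 16 in chow, 5 of 16 in HFCF and 5 of 16 over both diets had an unadjusted p under 0.05, against 23.5%, 29.5% and 34.7% of all genes. With diet, Ppara was the 1 called, higher on HFCF in livers labeled WT (0.59 ± 0.07, adjusted p = 0.000653) and at 0.19 ± 0.07 (adjusted p = 0.0638) in livers labeled HuRHep-/-. Under the label HuRHep-/- 0 of 16 were called by limma, and 7 had an unadjusted p under 0.05, against 48.2% of all genes. Of 15 marker targets of CAR and PXR tested, 6 were lower on HFCF under either label, against 3.24% of all genes in livers labeled WT and 4.9% in livers labeled HuRHep-/-, with 0 higher in livers labeled WT, against 6.14% of all genes, and 2 higher in livers labeled HuRHep-/-, against 14.2%. The 2 called higher were Gstm3 and Gsta1. The CAR target Cyp2b10 had -3.90 ± 0.92 (adjusted p = 0.0115) and -2.95 ± 0.92 (adjusted p = 0.0255). Its level on HFCF was low, at 0.185 to 4.51 CPM in livers labeled WT. The PXR target Cyp3a11 had -1.18 ± 0.28 (adjusted p = 0.0112) and -1.23 ± 0.28 (adjusted p = 0.00537). These genes were singled out after their values were seen. Between the labels over both diets, Cyp2c54 (-1.13 ± 0.17, adjusted p = 0.00129) and Ugt1a1 (-0.68 ± 0.06, adjusted p = 7.16e-05) were lower and Slco1a4 (0.81 ± 0.18, adjusted p = 0.0106) higher, against 1.84% and 3.23% of all genes. Within a diet, 2 targets were lower and 0 higher in chow, against 0.969% and 1.27% of all genes, and 2 were lower and 1 higher in HFCF, against 1.47% and 2.15%.

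With diet, 4 of 14 other neutral lipid hydrolases were higher on HFCF in livers labeled WT, Mgll (0.99 ± 0.10), Lipe (0.72 ± 0.19), Pnpla3 (1.66 ± 0.42) and Lipa (0.67 ± 0.10), with adjusted p of 0.000176 to 0.0210, against 6.14% of all genes called higher. Lpl and Pnpla3 were higher and Ddhd2 lower on HFCF in livers labeled HuRHep-/-, against 14.2% of all genes called higher and 4.9% lower. Of the 11 esterification genes, 3 were called higher on HFCF in livers labeled WT and 2 in livers labeled HuRHep-/-, and 0 lower, against the same shares. Mogat1, which esterifies monoacylglycerol, was higher on HFCF under both labels (3.30 ± 0.38 and 3.99 ± 0.38), as was Soat1, which esterifies cholesterol (0.86 ± 0.22 and 1.12 ± 0.22). Agpat2, an acyltransferase of phosphatidate synthesis, was the third in livers labeled WT (0.75 ± 0.11, adjusted p = 0.00146), named after its values were seen. Of the 9 genes of very-low-density lipoprotein assembly and of the 13 other phase I hydrolases, 0 were called with diet under either label. By limma, 3 and 6 of them had an unadjusted p under 0.05 in livers labeled WT, against 37.9% of all genes, and 5 and 4 in livers labeled HuRHep-/-, against 48.2%. The same 2 comparisons held the 4 called carboxylesterases named above in each.

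Of 16 acute phase genes, 9 were called higher and 1 lower in livers labeled HuRHep-/- over both diets, among them Saa1 (2.35 ± 0.41, adjusted p = 0.00309), Lcn2 (2.32 ± 0.42, adjusted p = 0.00362), Saa2 (2.09 ± 0.53, adjusted p = 0.0191) and Orm2 (1.78 ± 0.40, adjusted p = 0.0110), against 3.23% of all genes higher and 1.84% lower. Within a diet, 5 were called higher and 1 lower in chow and 0 higher and 1 lower in HFCF, against 1.27% higher and 0.969% lower of all genes in chow and 2.15% and 1.47% in HFCF. In HFCF 7 of 16 had an unadjusted p under 0.05 by limma, against 29.5% of all genes. Saa1 had 4.01 ± 0.64 (adjusted p = 0.0211) in chow and 0.68 ± 0.32 (adjusted p = 0.210) in HFCF, and its interaction was not called (adjusted p = 0.153). Of 10 pericentral genes, Rhbg (1.02 ± 0.17) and Lgr5 (0.66 ± 0.18) were called higher and Oat (-0.69 ± 0.13) lower, and of 10 periportal genes Aldh1b1 (0.99 ± 0.12) was called higher. Within a diet, 1 pericentral gene (Glul) was called higher and 0 lower in chow, and 1 (Rhbg) was called higher and 3 (Cyp27a1, Slc1a2 and Cyp2e1, named after their values were seen, as was Glul) lower in HFCF, against the same shares of all genes. The list's median log2 fold change was -0.01 in chow and -0.47 in HFCF, against 0.00 over all genes in each. Of the periportal genes, Aldh1b1 was the 1 called in each diet. Beside these calls, 3 carboxylesterases were lower in chow, 2 in HFCF and 5 over both diets, and the part of these lists in that was not tested.

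The same 3 lists also held calls with diet. Of the 16 acute phase genes, 3 were higher and 3 lower on HFCF in livers labeled WT, against 6.14% and 3.24% of all genes, and 2 were higher and 8 lower in livers labeled HuRHep-/-, against 14.2% and 4.9%. Of the 10 periportal genes, 5 were lower and 0 higher in livers labeled WT (Ass1, Cyp2f2, Etnppl, Gls2 and Hal, from -1.62 to -0.66), and 4 were lower and 1, Aldh1b1, higher in livers labeled HuRHep-/-. Of the 10 pericentral genes, 1 was lower in livers labeled WT, Cyp1a2 at -1.57 ± 0.22 (adjusted p = 0.00101), and 4 were lower in livers labeled HuRHep-/- (Cyp1a2, Cyp2e1, Lgr5 and Slc1a2, from -1.88 to -0.60), with 0 higher under either label. The genes with diet values here were named after their values were seen. In these comparisons 4 carboxylesterases were lower in livers labeled WT, and 3 were lower and 1 higher in livers labeled HuRHep-/-, and the part of the lists in that was not tested.

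Promoters are shown for the members in which the windows can be set against the values: Ces1b and Ces1c, adjoining genes of which the first was called in chow and the second was not, and Ces1g and Ces3b, whose estimates in HFCF had opposite signs. RefSeq promoter windows (GRCm38.p6) were found for 7 of the 10 members, Ces1b, Ces1c, Ces1e, Ces1g, Ces2a, Ces2e and Ces3b. Ces1b had 2 windows, which were 78% and 46.7% identical to the Ces1c window, and the former is shown, a choice made after that identity was seen. Each sequence below is the 250 bases before the start site, read along the gene. In Ces1b (chr8:93079941-93080190, minus strand) and Ces1c (chr8:93131284-93131533, minus strand) capitals mark bases without an identical partner in the alignment of the pair.
Ces1b: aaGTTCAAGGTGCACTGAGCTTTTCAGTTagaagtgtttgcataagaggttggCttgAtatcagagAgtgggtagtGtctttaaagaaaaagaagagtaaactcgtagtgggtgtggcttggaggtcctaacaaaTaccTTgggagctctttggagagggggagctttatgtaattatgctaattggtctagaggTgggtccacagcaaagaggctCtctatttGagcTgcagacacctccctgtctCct
Ces1c: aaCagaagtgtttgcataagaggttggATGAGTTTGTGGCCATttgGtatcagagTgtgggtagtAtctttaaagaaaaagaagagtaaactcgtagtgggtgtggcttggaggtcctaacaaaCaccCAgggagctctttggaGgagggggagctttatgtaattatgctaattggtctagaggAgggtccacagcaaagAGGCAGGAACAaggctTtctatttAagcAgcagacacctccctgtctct
In both sequences 211 of 250 bases had an identical partner and 39 did not. In Ces1g (chr8:93337210-93337459, minus strand) and Ces3b (chr8:105083505-105083754, plus strand) capitals mark a match to TATAAA, on the reverse strand in Ces1g.
Ces1g: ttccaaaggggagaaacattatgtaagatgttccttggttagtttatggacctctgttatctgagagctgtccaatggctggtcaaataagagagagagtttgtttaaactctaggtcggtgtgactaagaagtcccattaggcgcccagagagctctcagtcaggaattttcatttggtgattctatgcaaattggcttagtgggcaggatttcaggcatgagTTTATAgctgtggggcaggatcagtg
Ces3b: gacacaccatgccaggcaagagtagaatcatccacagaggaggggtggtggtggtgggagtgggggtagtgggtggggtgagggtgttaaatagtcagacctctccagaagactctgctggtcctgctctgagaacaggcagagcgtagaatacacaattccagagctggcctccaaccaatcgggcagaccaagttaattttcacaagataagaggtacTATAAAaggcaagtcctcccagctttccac
These matches began at -26 and -30 from the start site. TATAAA was found on either strand in 13.6% of 32851 mouse promoter windows of 300 bases. Of the 4 other motifs searched on both strands, AGGTCA, a nuclear receptor site, matched in Ces2a at -226 and in 16.3% of all windows. The letters TTCNNNGAA (8.3% of windows), TGTTTAC (3.65%) and the HNF1 motif (0.00913%) matched in none of the 7 genes' windows. No 2 of these motifs overlapped in a member's window.

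HuR binds AU-rich stretches, so the 3′ ends of the members were searched for ATTTA. It occurred in 4 of 10 annotated 3′ untranslated regions, 3 times in Ces2e, 2 times in Ces1f and 1 time each in Ces1d and Ces2a, whereas 46.7% of 8827 genes with 3′ ends of the same range of lengths (150 to 958 bases) had it. The longer TATTTAT occurred in Ces1d and Ces1f, and in 12.2% of those genes. Of the 5 members called over both diets, only Ces2e held ATTTA. The other members with it, Ces1d, Ces1f and Ces2a, had lower estimates over both diets that passed without the fold threshold. The study also names U-rich sequences and introns as sites of HuR, which were not searched, and binding was not tested.

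Within groups, some pairs of members varied together from library to library and others did not. Over the deviations of the 12 libraries from their group means (log2 CPM), Pearson's r of the 45 pairs ran from -0.75 to 0.95 with a median of 0.28, and 15 were below 0. It was 0.95 between the neighbors Ces1e and Ces1f, 0.84 between Ces3a and Ces3b, 0.84 between Ces1c and Ces2a and 0.78 between Ces1b and Ces1c. The lowest values were -0.75 between Ces1g and Ces3b and -0.73 between Ces1g and Ces3a. These are descriptions over 12 libraries with 3 in each group, all genes of a library share its scaling, and the pairs Ces3a with Ces3b and Ces1b with Ces1c share sequence.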

How the data were processed

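RNA-seq of 12 mouse livers was deposited by the authors as raw counts per gene in 2 tables, whole numbers written as text with commas, without normalization. Per the study's methods, reads were aligned in CLC Genomics Workbench to a RefSeq annotation of GRCm38.p6. The library kit was stranded, and the methods name reverse strand alignment. How reads matching several genes were treated is not given in the sources used here. Libraries held 30071731 to 35949203 counts.

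Groups followed the labels. Commas were removed, and a gene was tested if 3 or more libraries reached the CPM that 10 counts make in a library of median size and its total reached 15 counts. Log2 CPM (TMM factors with trims of 0.3 and 0.05, pseudocount 0.5) were tested with limma 3.58.1 (lmFit, eBayes with trend) in R 4.3.3, with Benjamini-Hochberg adjustment over all genes tested. Genotype within a diet was fitted on 6 libraries, other comparisons on 12. Calls required an adjusted p not above 0.05, a 1.5-fold change and 10 counts in each group. Fold changes are on the log2 scale with the pseudocount. CPM shown per library use factors over all 12 libraries, so they can differ slightly from the 6-library fits. The fits were tested on simulated data.

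All 10 members were named in every comparison, with every other listed Ces gene, and of other lists the calls and up to 4 called genes with the largest change over both diets. The members and lists were chosen with earlier results of these data known. Replicate numbers are shared across groups, but same-numbered libraries of the compared groups deviated together with r of only -0.14 to 0.19, so no pairing was assumed. Alternatives were other scaling factors, filters, a pseudocount of 2, voom weights, thresholds without the fold, a replicate block, other sets of libraries in the fit and leaving out each library. Gene positions, lengths and transcripts came from GENCODE release 21 for mouse (M21), aligned with Biopython 1.88.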

Additional observations from a re-analysis of the deposited data

How the results depend on the processing

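Of 60 log2 fold changes (10 genes in 6 comparisons), other scaling factors, filters, a pseudocount of 2, voom weights, the replicate block and other sets of libraries gave 460 values, of which 456 kept their direction and side of the threshold. Of the others, 3 were the call of Ces1c on HFCF in livers labeled WT, lost with upper-quartile factors, with 10 counts in every library and in the fit on 6 libraries, and 1 was Ces2a between the HFCF groups, gained with the replicate block. Without the fold threshold, members called numbered 5 in chow, 4 in HFCF and 9 over both diets, by construction. Leaving out 1 library at a time, the number called ranged from 0 to 5 in chow, from 0 to 3 in HFCF, from 4 to 5 over both diets, from 3 to 4 for diet in livers labeled WT and from 4 to 5 for diet in livers labeled HuRHep-/-. Over these fits, the numbers of all genes called higher and lower ran from 4 to 169 and 4 to 151 in chow. In HFCF they ran from 8 to 584 and 20 to 266, and over both diets from 308 to 654 and 231 to 303. With diet they ran from 515 to 1218 and 332 to 563 in livers labeled WT. In livers labeled HuRHep-/- they ran from 1505 to 2134 and 607 to 760. Of 600 values of the members with 1 library left out, 17 lost and 4 gained a call, and 9 values, none of them called, changed sign. Their ranges were -0.22 to 0.021 for Ces1d in chow, -0.21 to 0.068 for Ces1c in HFCF, -0.10 to 0.15 for Ces1d with diet in livers labeled WT, and for the interaction -0.049 to 0.24 for Ces1c and -0.27 to 0.036 for Ces2a. No pairing by replicate number was assumed: same-numbered libraries had r of -0.03 to 0.11 in chow and 0.09 to 0.19 in HFCF, where 1 of 3 and 3 of 3 libraries correlated best with their own number. In HFCF the highest r between libraries of unlike number was 0.0165. Whether the number marks something shared by these libraries was not tested. With the replicate block, 3 members were called in chow and 3 in HFCF, and of all genes 121 higher and 105 lower in chow, against 172 and 131 without it, and 496 higher and 268 lower in HFCF, against 307 and 210. The cause of these changes was not tested. With 3 libraries a group, a member that was not called may still differ.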

Other observations

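In 4 of the Ces genes, Ces2b, Ces2c, Ces3b and Ces4a, 1 chow liver was the highest of its group. Chow WT replicate 2 held 11.6 CPM of Ces2b, 140 CPM of Ces2c, 6.05 CPM of Ces4a and 682 CPM of Ces3b. Replicates 1 and 3 of that group held 0.428 and 0.523 CPM of Ces2b, 72.7 and 72.1 CPM of Ces2c, 2.14 and 1.80 CPM of Ces4a, and 512 and 534 CPM of Ces3b. HFCF WT replicate 2 was likewise the highest of its group in all 4, at 6.44 CPM of Ces2b, 127 CPM of Ces2c, 3.21 CPM of Ces4a and 409 CPM of Ces3b. This order was not shared by all Ces genes of the same stretch of chromosome 8. For Ces2e, replicate 2 was the lowest in both groups, at 199 CPM against 204 and 231 CPM in chow and at 241 CPM against 296 and 264.5 CPM in HFCF, and for Ces3a chow WT replicate 2, at 2125 CPM, lay between the others at 2177 and 1931 CPM, while HFCF WT replicate 2 was the highest, at 2108 CPM against 1772 and 1416 CPM. Ces2a was lowest in chow WT replicate 2, at 466 CPM against 565 and 582 CPM, and highest in HFCF WT replicate 2, at 270.4 CPM against 214 and 177.5 CPM. These genes were singled out after their values were seen.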
